A study of Mus musculus with 2 samples.

Results

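Cells labelled as mesenchyme of the meninges and vessels of the embryonic forebrain were taken from a single cell library of the mouse telencephalic vesicle. They were selected on their own RNA: a cell barcode was a member when it held at least 2500 unique molecular identifiers (UMIs, each standing for 1 captured transcript molecule), a share of mitochondrial UMIs under 6%, at least 10 UMIs of *Col1a1*, *Col1a2* and *Col3a1* together, globin UMIs under 10%, at most 1 UMI of the macrophage genes *Csf1r* and *C1qb*, and at most 1 UMI of the endothelial genes *Cdh5* and *Cldn5*. The limits on depth and mitochondrial share kept 11498 of 14283 barcodes of this library, and 469 of the 11498 met the whole rule (4.08%, exact Clopper-Pearson 95% interval 3.72 to 4.46%), out of 20110 barcodes in both libraries of the series. Of 473 kept barcodes with enough collagen UMIs, 1 was removed for globin, 1 for macrophage and 2 for endothelial UMIs. Each condition is 1 library without replicates, and every interval below covers counting error only.

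The leptomeninges and the perivascular mesenchyme are fibroblast and mural lineages that lie on the surface of the brain and follow its blood vessels inwards. They lay down much of the collagen and laminin of the pial basement membrane, to which radial glia attach, and secrete signals to the neuroepithelium beneath, among them the chemokine *Cxcl12* and retinoic acid. In the forebrain they arise largely from the cranial neural crest and share transcription factors such as *Twist1* and *Foxc1* with the rest of the head mesenchyme.

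The study examined the link between the transcription factor *Dbx1* and the adhesion molecule *Pcdh8* in the embryonic cortex. The library was made from entire telencephalic vesicles of 3 pooled wild-type C57BL/6J embryos of 2 litters, labelled E12 and given in the study's methods as E11.5 to E12, with the 3.1 version of the 10x Genomics 3′ kit. The second library of the series, made with version 2 of the kit, holds septal explants pooled from 8 E11.5 PGKCre;Rosa26YFP and 4 E12.5 Dbx1Cre;Rosa26tdTomato embryos, of 2 litters per line, whose label also reads wild-type C57BL/6J. Both tissues were dissociated with enzymes and passed through a cell strainer, without sorting. Embryos could not be told apart within a library. The telencephalic library held 194821794 UMIs, with a median of 8503 per barcode and a range of 500 to 207131, and the libraries had 1 barcode sequence in common. The comparison class was neural cells of the same library: 9761 kept barcodes with at most 1 collagen UMI and at least 5 UMIs of 10 genes of forebrain progenitors and neurons (among them *Sox2*, *Hes5*, *Pax6*, *Fabp7*, *Dcx*, *Stmn2*, *Elavl3*, *Elavl4* and *Myt1l*), of which 6747 were on the progenitor side and 3014 on the neuron side. The members together held 8789743 UMIs, with a median of 14569 UMIs and 4583 genes per cell, against 10025 UMIs and 3672 genes in neural cells.

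The 3 genes that chose the members encode the chains of type I collagen (*Col1a1* and *Col1a2*) and type III collagen (*Col3a1*), the main fibrillar collagens of loose connective tissue. A member held between 10 and 166 of their UMIs, with a median of 20. Levels are given as counts per 1000000 of the summed UMIs of a class (CPM). *Col3a1* stood at 814 CPM in the members and 1.39 in neural cells, *Col1a2* at 369 and 1.84, and *Col1a1* at 176 and 0.353. These levels follow from the rule and are no finding. Among all kept barcodes, 10049 had no UMI of the 3 genes, 653 had 1 and 251 had 2 to 7. At the edge of the rule, 52 members held 10 or 11 collagen UMIs and 71 barcodes that met the other criteria held 8 or 9. *Lum* stood at 244 CPM in the former and 119 in the latter, *Foxc1* at 109.7 and 69.0, and *Sox2* at 77.0 and 146, so that barcodes just outside the rule held the same mesenchymal genes at lower levels. A collagen UMI was found in 6.02% of neural cells, which are limited to 1, and in 3.50% of 457 globin-rich barcodes, which mark red blood cells.

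The windows from 250 bases before to 50 bases after the start site of *Col1a2* (chr6:4505368-4505667, plus strand) and *Col3a1* (chr1:45311288-45311587, plus strand), from RefSeq on GRCm38.p6, are printed 5′ to 3′ because RNA of both genes chose the members. Capitals mark every match to CCAAT, a motif known from type I collagen promoters, or to TATAAA, on either strand (ATTGG and TTTATA on the reverse strand).
Col1a2: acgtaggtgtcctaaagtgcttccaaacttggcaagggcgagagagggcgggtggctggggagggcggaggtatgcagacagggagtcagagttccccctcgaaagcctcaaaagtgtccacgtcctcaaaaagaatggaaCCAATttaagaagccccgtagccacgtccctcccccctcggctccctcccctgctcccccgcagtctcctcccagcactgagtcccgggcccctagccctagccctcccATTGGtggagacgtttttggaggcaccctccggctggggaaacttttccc
Col3a1: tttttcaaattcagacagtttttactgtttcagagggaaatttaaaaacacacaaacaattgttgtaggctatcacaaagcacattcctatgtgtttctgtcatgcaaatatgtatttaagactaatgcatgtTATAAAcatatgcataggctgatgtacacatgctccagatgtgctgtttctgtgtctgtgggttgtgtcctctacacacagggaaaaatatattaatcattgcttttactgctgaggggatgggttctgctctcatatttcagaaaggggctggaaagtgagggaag
The *Col1a2* window held CCAAT 109 bases before the start site and its reverse complement from base 1 after it, and no TATAAA. The *Col3a1* window held TATAAA 117 bases before the start site and no CCAAT. Of 32851 mouse promoter windows of this length, 37.4% held CCAAT and 13.6% held TATAAA on either strand. A match describes the letters of the window only.

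Neural RNA divided the members. Of the 469, 125 held no UMI of the 10 neural genes, 217 held 1 to 4, 24 held 5 to 9, 25 held 10 to 19 and 78 held 20 or more. The 127 members with 5 or more had a median depth of 23181 UMIs, against 12259.5 in the other 342, at the same median of 20 collagen UMIs. Scrublet, which scores a barcode by its likeness to simulated pairs of cells, marked 79 of these 127 and 2 of the 342, and 741 of all 11498 kept barcodes (6.44%). Embryos were pooled, and RNA of *Xist*, transcribed from the inactive X chromosome of females, was counted beside that of 4 genes of the Y chromosome. A UMI of *Xist* and a UMI of a Y gene met in 38.6% of the 127 members (interval 30.1 to 47.6%), in 4.68% of the 342 (interval 2.70 to 7.49%) and in 9.47% of neural cells (interval 8.89 to 10.1%). The 11 neural progenitor markers summed to 1244 CPM in the 127 members, 187 in the 342 and 2234 in neural cells, and the 11 neuron markers to 1090.4, 190.4 and 1733. Of each list 5 genes belong to the 10 that made this split and defined the neural cells, so that the order of these sums was largely fixed by the choice. The part of these barcodes in the results below was not tested, and counts that differ without them are given for the 342.

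**Figure D1:**
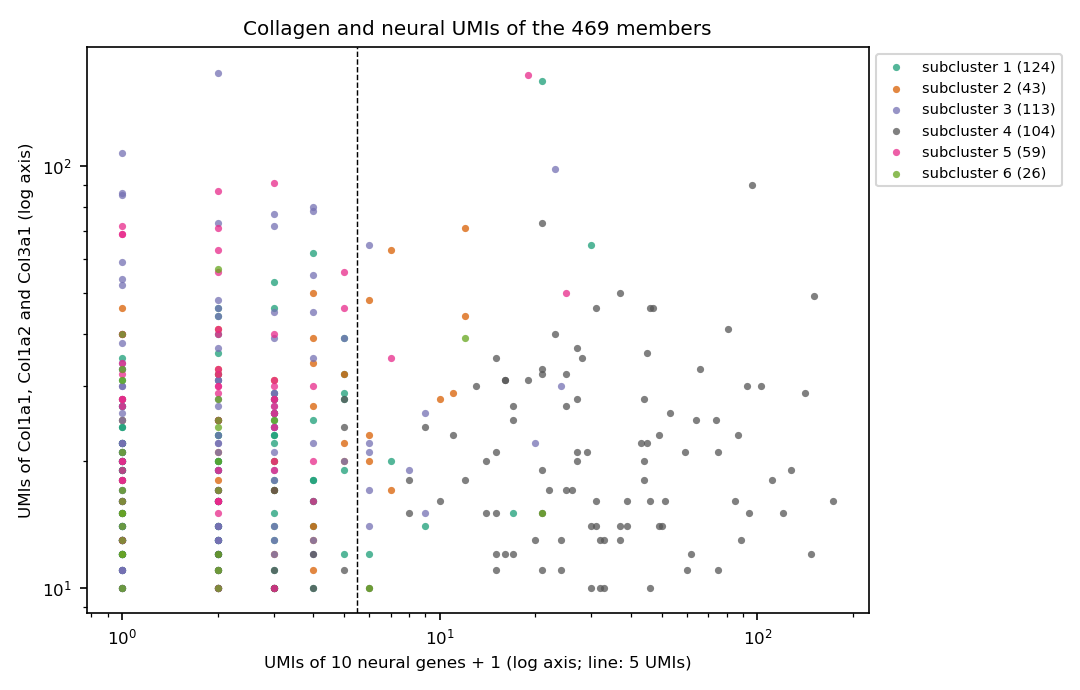
UMIs of the 10 neural genes plus 1 (x, log axis) against UMIs of Col1a1, Col1a2 and Col3a1 (y, log axis) in each of the 469 members, coloured by subcluster. The 127 members right of the dashed line hold 5 or more neural UMIs, and 95 of them belong to subcluster 4.

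The label of meninges and vessels was set against marker lists. Of 15 markers of meningeal fibroblasts, 10 were abundant enough to be compared (a mean of at least 10 CPM over both classes), 7 were at least 2-fold higher in members and none was lower, beside 7.05% of all compared genes that were higher and 6.13% that were lower by the same rule. In the 342 members 8 of 11 were higher. The list summed to 2423 CPM in members against 1901 in neural cells. *Foxc1*, a forkhead factor needed for the meninges to form, stood at 127 CPM against 0.311 in neural cells, and *Tbx18*, a T-box factor of mural and meningeal lineages, at 75.4 against 0.116. *Foxp1*, *Nnat* and *Crabp2* of this list were under 2-fold apart, and the later markers were rare: *Slc6a13* reached at most 2.30 CPM in any subcluster, *Aldh1a2* at most 1.41, and *Col15a1* had no UMI. Of 14 markers of pericytes and mural cells, 4 could be compared and 3 were higher, namely *Tagln*, *Pdgfrb* and *Vtn*. The list summed to 365 CPM in members and 153 CPM in endothelial cells, while *Rgs5* (2.16 CPM), *Kcnj8* (2.50 CPM) and *Abcc9* (6.6 CPM) stayed under the minimum level and *Higd1b* had no UMI. The endothelial class had no collagen limit, and a single barcode held 324 of its 332 collagen UMIs. The part of this barcode in the endothelial values here and below was not tested. The markers of craniofacial mesenchyme were as plain as those of the meninges: all 13 could be compared and 12 were higher, *Dlx5* being lower, with 1129 CPM summed over the list against 80.7 in neural cells. These markers therefore do not set meninges apart from other head mesenchyme, and the cells are called mesenchymal cells here. The summed UMIs of 10 endothelial markers made 30.3 CPM, against 3930.3 in 27 endothelial cells, and those of 11 macrophage markers 10.4 CPM, against 6715 in 42 macrophages, with *Lyz2*, *C1qa* and *C1qc* at 0. *Egfl7* led the endothelial list with 15.4 CPM and *Cd68* the macrophage list with 4.32. Of 10 bone and cartilage markers 2 were higher, *Col2a1* and *Col9a1*, 1 was neither and *Acan*, *Matn1*, *Ibsp* and *Bglap* were at 0. The muscle list summed to 26.5 CPM, most of it *Pax3*, with *Myf5* and *Myog* at 0. The glial crest list summed to 19, the choroid plexus list to 20.9, most of it *Sostdc1*, and the erythroid list to 16.4. The epithelial list summed to 17.6, with *Krt5*, *Krt14* and *Trp63* at 0. In the endothelial, muscle and choroid plexus lists 1 gene each could be compared (*Egfl7*, *Pax3* and *Sostdc1*), and each was higher. The glial crest list had 1 (*Ednrb*), which was lower, and the macrophage, erythroid and epithelial lists had none. *Egfl7* was under 2-fold against progenitors alone (1.82-fold), with members from 5 collagen UMIs (1.90-fold) and without Scrublet's doublets (1.98-fold).

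Across the transcriptome, 9403 genes had a mean of at least 10 CPM over both classes and were compared. A gene was called when its fold was at least 2 and the exact binomial 95% interval of the fold excluded 1, and by this rule 663 genes were higher (7.05%) and 576 lower (6.13%) in the members. For the 342 members under 5 neural UMIs, 851 of 9374 genes were higher (9.08%) and 796 lower (8.49%). No test was possible with 1 library. For some genes named below the direction depended on the neural reference: against the neurons alone the folds of *Rspo2* (1.009), *Rspo1* (1.98), *Fgfr3* (1.27), *Adamts3* (1.15) and *Bmp6* (1.44) were above 1 and those of *Robo1* (0.788), *Ebf3* (0.612), *Ebf1* (0.885) and *Junb* (0.526) below 1, and against the progenitors alone that of *Dlx5* was 2.14. With cells thinned to 2500 UMIs the folds of *Rdh10* (1.88), *Robo1* (1.79), *Ebf3* (1.72), *Fos* (1.93) and *Junb* (1.15) were under 2 and those of *Bmp6* (0.505), *Itga6* (0.637) and *Pcdh19* (0.534) above 0.5.

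The 25 genes with the highest folds were 45.8-fold to 563-fold higher, among those with at least 100 CPM in the members. The 3 collagen genes of the rule were left out of this ranking, and all 25 kept the call in the 342 members. Sizes depended on the reference for some of them: against progenitors alone the 25 folds ran from 43.5 to 566 and 3 moved over 1.5-fold, and against neurons alone from 29.3 to 668, where 10 did. *Crabp1* was 219.9-fold higher against progenitors and 29.3-fold against neurons, and *Dlc1* 126-fold and 29.4-fold. Under other settings, *Foxc1* moved from 410-fold to 703-fold with cells thinned to 2500 UMIs. *Tfap2b* moved from 187-fold to 329-fold without Scrublet's doublets, and *Dkk2* from 145-fold to 235-fold with cells weighted equally. *Lum* led them. It encodes lumican, a small proteoglycan that binds collagen fibrils, lies on chromosome 10 (chr10:97565128-97572703, plus strand, GRCm38), and stood at 295 CPM in members (interval 284 to 307) and 0.524 in neural cells (interval 0.419 to 0.647), a 563-fold difference (interval 454 to 707). A member held from 0 to 44 *Lum* UMIs with a median of 4, and 82.5% of members held at least 1, as did 0.861% of neural cells. With every cell thinned to 2500 UMIs, a depth that all kept cells had, the share was 48.6% in members, 0.225% in neural cells and 0.219% in globin-rich barcodes. *Lum* was chosen by its fold, so these shares describe it and are no test. *Ddr2*, a receptor that is activated by fibrillar collagen, followed at 533-fold (156 against 0.292 CPM), and *Crym*, which encodes a thyroid hormone-binding crystallin, at 481-fold.

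Of the 25, 7 were transcription factors of mesenchyme. *Foxc1* was 410.1-fold higher (interval 309.7 to 554), with a median of 2 UMIs per member and at least 1 in 75.7%. *Twist1*, a basic helix-loop-helix factor of mesenchyme, was 329-fold higher and found in 83.8% of members. *Six2* (239-fold), *Tfap2b* (187-fold), *Fli1* (111-fold), *Bnc2* (95.9-fold) and *Foxd1* (46.2-fold) belonged to the same set. The secreted factors among the 25 were the chemokine *Cxcl12*, at 152 against 1.19 CPM (128-fold), and the Wnt antagonist *Dkk2* (145-fold). *Crabp1*, which binds retinoic acid in the cytoplasm, stood at 969 CPM against 9.64 (100.4-fold), with 4.40 CPM in progenitors and 33.1 in neurons, and was found in 76.8% of members and 1.60% of neural cells at 2500 UMIs. The others were genes of matrix and its receptors (*Lama2*, *Hapln1*, *Col26a1*, *Col23a1*, *Itga9* and the growth factor receptor *Pdgfra*), of the contractile and membrane skeleton (*Tagln*, *Cnn2*, *Anxa2* and the GTPase regulator *Dlc1*), *Cped1*, and the record ENSMUSG00000090053, whose symbol *Pakap* the annotation gives to more than 1 record, so that its count is uncertain.

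**Figure D2:**
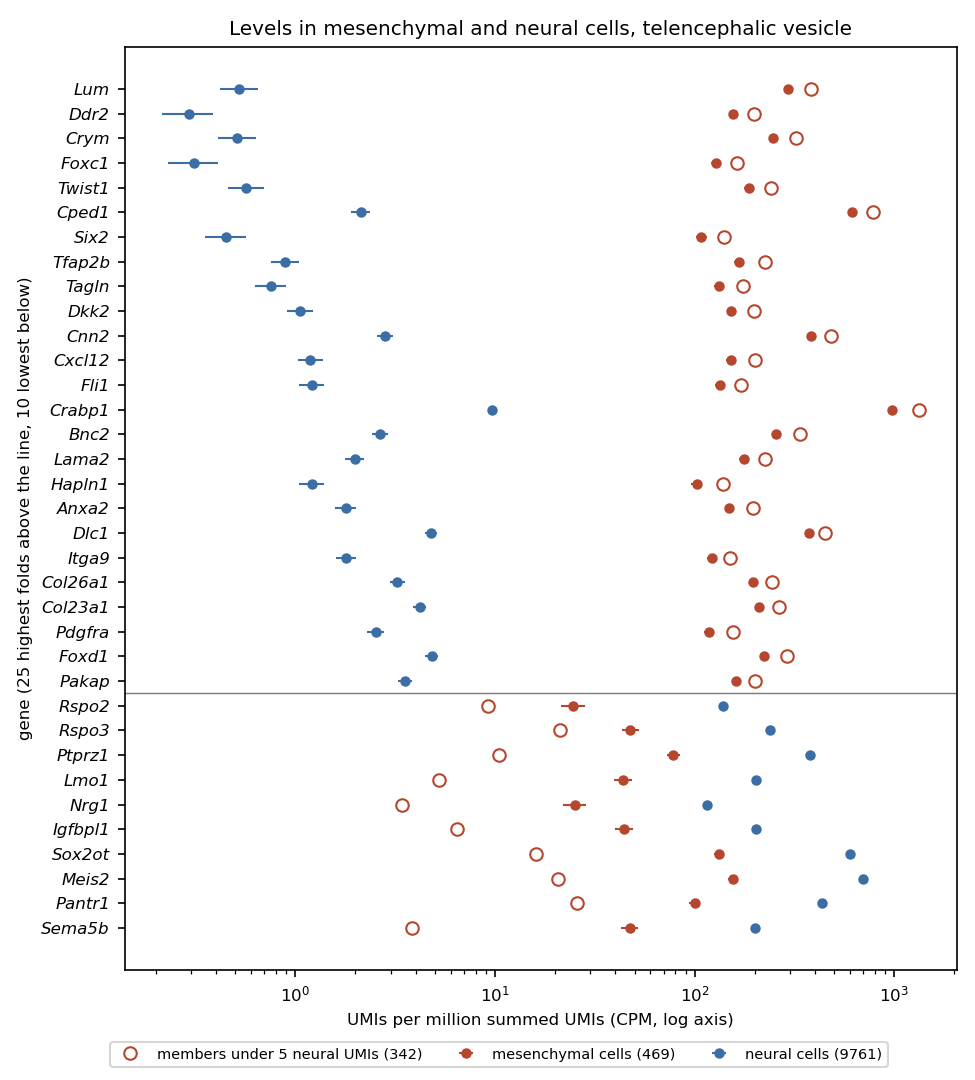
CPM (x, log axis) of the 25 genes with the highest and the 10 with the lowest fold (y) in members and neural cells. The genes of the rule and of the neural definition are left out. Bars are exact Poisson 95% intervals, and open circles are the 342 members under 5 neural UMIs. The upper genes stand near or above 100 CPM in members and under 10 in neural cells, and the open circles lie further from the neural values for all 35 genes.

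The 10 genes with the lowest folds, among those with at least 100 CPM in neural cells and outside the neural definition, stood at 4.24-fold to 5.66-fold lower levels in the members. They were the R-spondins *Rspo2* and *Rspo3*, which amplify Wnt signals, the phosphatase receptor *Ptprz1* of radial glia, the transcriptional regulators *Lmo1* and *Meis2*, the ligand *Nrg1*, *Igfbpl1*, the guidance molecule *Sema5b*, and the long noncoding RNAs *Sox2ot* and *Pantr1*. *Sox2ot* overlaps *Sox2*, and the assignment of reads shared by both may have shaped its count. *Meis2* stood at 156 CPM in all members and 701 in neural cells, and at 20.7 CPM in the 342 members. The levels of these genes in the whole set moved with the 127 members rich in neural UMIs: *Ptprz1* was 4.86-fold lower over all members and 36.3-fold lower in the 342. All 10 kept the call there. Against neurons alone *Ptprz1* (0.556-fold) and *Rspo2* did not. *Rspo3* changed least among them, from 5.0-fold to 11.2-fold.

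Most lists of extracellular matrix genes held more genes that were higher than lower in members. Over each whole list, laminin and related genes summed to 714 CPM in members and 1313 in endothelial cells. Basement membrane and network collagens made 746 and 2042 CPM, collagen processing genes 2105 and 2403, and matrix receptors 1102 and 1233. Matrix glycoproteins and proteoglycans made 2748 and 2696 CPM. Proteases and inhibitors (632 and 576 CPM), fibrillar collagens outside the rule (576 and 204) and other collagens (578 and 131) were higher in members. Over all 9403 genes the median log2 fold was -0.05, and the lists below are described by their counts against the shares of 7.05% and 6.13% above, with no test. All 5 fibrillar collagens that could be compared, besides those of the rule, were higher (median log2 fold 1.61). *Col5a2*, which joins type I fibrils, stood at 198 CPM against 30.1 (6.57-fold), and *Col2a1*, the collagen of cartilage that the early neuroepithelium also expresses, at 147 against 61.7 (2.39-fold). Of 6 basement membrane and network collagens, 3 were higher and 3 neither (median log2 fold 2.18). *Col4a1* stood at 397 CPM and *Col4a2* at 206, 28.7-fold and 17.1-fold above neural cells, and the endothelial cells held 1083 and 546 CPM of the same genes. *Col8a2* was 303-fold higher, whereas *Col18a1* (1.21-fold), *Col4a5* (1.02-fold) and *Col4a6* (0.969-fold) were near the neural level. The 3 chains of type VI collagen stood at 12.51, 14.3 and 14.6 CPM, with folds of 158, 29.8 and 217, and were not called because the mean over both classes fell under the minimum. Of 6 further collagens 5 were higher, with *Col9a1* at 36.7 CPM against 0.244 and *Col13a1* at 28.2 against 0.189. These counts were the same in the 342 members, where *Col25a1* of the last list was lower (0.473-fold).

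Of 21 genes that fold, modify or cleave collagen, 12 were higher, 1 lower and 8 neither (median log2 fold 1.42), and in the 342 members 14 of 22 were higher and 2 lower. *Serpinh1*, the collagen chaperone, stood at 576 CPM against 162 (3.55-fold). The prolyl 3-hydroxylase complex of *P3h1*, *Crtap* and *Ppib* had folds of 5.17, 5.02 and 1.95, the last under the threshold. *Pcolce*, an enhancer of propeptide cleavage, was 141-fold higher and *Fkbp10*, a collagen prolyl isomerase, 12.3-fold, while *Adamts3*, a propeptidase, was lower at 0.387-fold of the neural level. Of 10 laminin, nidogen and related genes, 9 were higher in members, and 9 in the 342 (median log2 fold 4.01). The laminin chains differed: *Lama2*, *Lama4* and *Lamc3* were 88.6-fold, 73.0-fold and 264-fold higher, whereas *Lama1* and *Lamc1*, which neural cells also expressed at 49.7 and 26.6 CPM, were 2.80-fold and 2.43-fold higher. The linker *Nid1* was 97.5-fold higher, and *Agrn*, which encodes agrin, was neither (0.743-fold).

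Of 19 matrix glycoproteins and proteoglycans, 17 were higher and none lower (median log2 fold 3.60), and in the 342 members 19 of 21 were higher. *Fbn2*, the fibrillin of embryonic microfibrils, stood at 547 CPM against 33.8 (16.2-fold), *Bgn*, which encodes biglycan, at 85.4 against 0.390 (219-fold), and *Tgfbi*, a secreted integrin ligand, was 317-fold higher. The 2 genes under the threshold were *Vcan* (1.72-fold), a proteoglycan that neurons also expressed at 367 CPM, and *Fn1* (1.47-fold), which encodes fibronectin. Among 10 matrix proteases and inhibitors 7 were higher (8 in the 342 members), including *Mmp2* (17.3-fold), its activator *Mmp14* (3.32-fold), the inhibitors *Timp2* (3.36-fold) and *Timp3* (2.68-fold), and *Serpinf1* (57.6-fold). Of 15 integrins and other matrix receptors 7 were higher, 2 lower and 6 neither, and in the 342 members 10 were higher and 3 lower. The collagen receptors of the Ddr pair went opposite ways, with *Ddr2* at 156 CPM against 0.292 and *Ddr1* at 29.6 against 76.8 (0.385-fold). *Itga9*, *Itga4*, *Itga8* and *Itga5* were 68.1-fold, 22.4-fold, 6.24-fold and 3.52-fold higher, and the laminin receptor subunit *Itga6* was lower (0.490-fold, but 0.898-fold against neurons alone and 0.548-fold with members from 5 collagen UMIs).

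**Figure D3:**
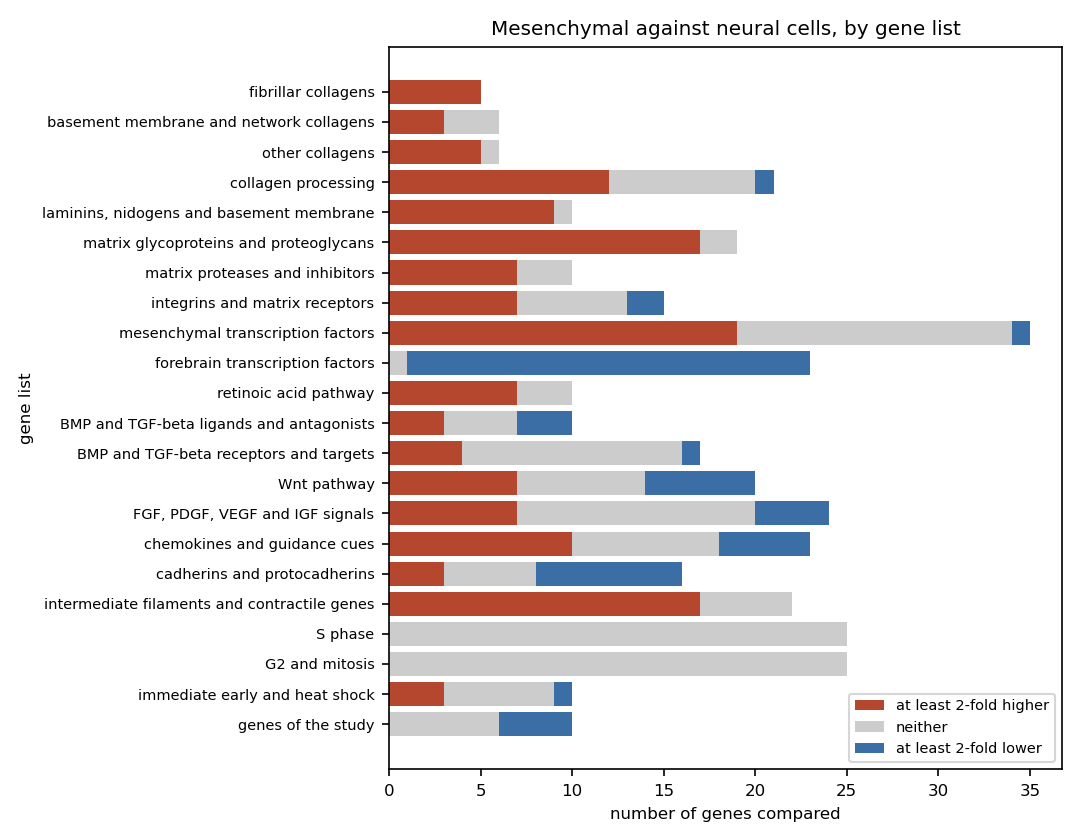
Number of genes of each list (x) that were at least 2-fold higher, at least 2-fold lower or neither in members against neural cells of the telencephalic vesicle, with 1 bar per list (y). Most collagen, laminin and glycoprotein genes are higher, forebrain transcription factors lower in 22 of 23 genes, and all 50 cell cycle genes neither.

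Of 35 transcription factors and cofactors of mesenchyme, 19 were higher, 1 lower and 15 neither (median log2 fold 1.80), against 20 higher and 2 lower of 36 in the 342 members. Beside those named above, *Foxc2* stood at 28.3 CPM against 0.0305 (930.0-fold, interval 393 to 2889), *Tbx15* at 58.7 against 0.512, and *Prrx2* at 147 against 3.83. *Msx1*, a homeobox target of BMP signals, was 34.8-fold higher. The aristaless-like genes *Alx1* and *Alx4*, which act in the frontonasal mesenchyme, were 396-fold and 488-fold higher. Several factors of the list were under 2-fold apart, among them *Zeb1* (0.958-fold), *Zeb2* (0.767-fold), *Nr2f1* (0.901-fold), *Zic1* (1.22-fold) and *Tead1* (1.07-fold). Of 23 forebrain transcription factors, 22 were lower and none higher (median log2 fold -1.87), and all 21 that could be compared were lower in the 342 members. Of these genes 3, *Pax6* and *Sox2* among them, were used to define the neural cells. *Emx2*, which the definition did not use, stood at 36.3 CPM against 102 (0.356-fold), and in the 342 members at 0.174-fold of the neural level. No member held a UMI of any of 15 *Hox* genes of paralogue groups found in the hindbrain and its crest, for which 3 counts would make 0.341 CPM. Neural cells held 4 UMIs of these genes (0.0244 CPM), under that floor, so the count of 0 does not set members apart from them.

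Retinoic acid genes were higher in 7 of 10 and lower in none, in all members and in the 342 (median log2 fold 1.40). On the side of uptake and synthesis, the retinol receptor *Stra6* stood at 20.3 CPM against 4.12 (4.91-fold) and the retinol dehydrogenase *Rdh10* at 15.8 against 7.46 (2.12-fold, but 1.88-fold with cells thinned). The enzyme that makes retinoic acid in later meninges, *Aldh1a2*, did not reach the minimum. All 3 retinoic acid receptors were higher: *Rarb*, itself a retinoic acid target, was 21.0-fold higher, *Rarg* 47.5-fold and *Rara* 2.66-fold, which was 1.87-fold against neurons alone. The cytoplasmic binding proteins differed, since *Crabp1* was 100.4-fold higher and *Crabp2* was 0.722-fold (neither).

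Of 10 BMP and TGF-beta ligands and antagonists, 3 were higher, 3 lower and 4 neither, and in the 342 members 4 were higher and 3 lower. *Bmp4* stood at 49.7 CPM against 16.2 (3.07-fold) and *Tgfb2* at 48.0 against 11.3 (4.26-fold). *Bmp6* (0.228-fold) and the antagonists *Nog* (0.466-fold) and *Fst* (0.410-fold) were lower. None of the 3 was called against neurons alone, where *Nog* was 0.785-fold and *Fst* 0.751-fold, and with members from 5 collagen UMIs *Nog* was 0.636-fold and *Fst* 0.514-fold. Of 17 receptors and targets 4 were higher, 1 lower and 12 neither (4 higher and 2 lower in the 342 members), among them the BMP receptors *Bmpr1a* (1.05-fold) and *Bmpr2* (1.22-fold) and the targets *Id1* (1.04-fold) and *Id3* (1.10-fold). *Tgfbr3*, a coreceptor, was 18.3-fold higher, and *Id4* was lower (0.253-fold, but 0.566-fold against neurons alone).

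In the Wnt list of 20 genes, 7 were higher, 6 lower and 7 neither, against 9 higher and 7 lower of 22 in the 342 members. Ligands and receptors were found on both sides. The receptors of noncanonical signals *Ror1* and *Ror2* stood at 195 and 169 CPM, 14.3-fold and 2.65-fold above neural cells, their ligand *Wnt5a* was 2.83-fold higher, the receptor *Fzd7* was 2.79-fold higher, and the antagonists *Dkk2* and *Frzb* were 145-fold and 20.8-fold higher. The lower genes were the ligands *Wnt7b* (0.154-fold) and *Wnt8b* (0.195-fold), the R-spondins *Rspo1* (0.382-fold), *Rspo2* (0.177-fold) and *Rspo3* (0.200-fold), and the receptor *Fzd8* (0.320-fold). Against neurons alone *Wnt8b* (0.699-fold) and *Fzd8* (0.597-fold) lost the call, as did *Rspo1* and *Rspo2*. The feedback targets *Axin2* and *Nkd1* were 1.38-fold (neither) and 2.97-fold higher.

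Among 24 FGF, PDGF, VEGF and IGF genes, 7 were higher, 4 lower and 13 neither (7 higher and 5 lower in the 342 members). Both PDGF receptors were higher, *Pdgfra* at 118 CPM against 2.52 and *Pdgfrb*, the receptor of mural cells, at 92.6 against 1.24. The insulin-like ligands *Igf1* and *Igf2* were 259-fold and 103-fold higher, and *Igf2r*, which clears *Igf2*, 2.50-fold. *Angpt1*, a ligand of the endothelial receptor *Tek*, was 2.03-fold higher, but 1.80-fold against neurons alone and 1.66-fold with members from 5 collagen UMIs, while *Vegfa* (1.42-fold) and *Vegfc* (1.65-fold) were neither. The lower genes were *Fgfr3* and the patterning ligands *Fgf8*, *Fgf15* and *Fgf17* of the anterior forebrain. For *Fgf8* and *Fgf17* the direction depended on the rule, since with members taken from 5 collagen UMIs their folds were 1.26 and 1.006. *Fgf17* also lost the call against progenitors alone (0.522-fold). Both stood highest in subcluster 4, where most cells were rich in neural UMIs. *Fgf8* made 16.2 CPM there and at most 1.66 in any other subcluster, and *Fgf17* 44.2 and 3.46.

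Of 23 chemokine and guidance genes, 10 were higher, 5 lower and 8 neither, against 12 higher and 5 lower of 24 in the 342 members. Beside *Cxcl12*, the repellents *Sema3a* (169 against 14.6 CPM, 11.6-fold) and *Slit3* (5.93-fold) were higher, whereas *Slit2* was lower (0.337-fold), as was *Ntn1*, which encodes netrin (0.245-fold). The ephrin *Efna5* stood at 915 CPM against 405 (2.26-fold). Among receptors, *Nrp2* (9.53-fold), *Unc5c* (5.31-fold), *Epha7* (3.22-fold) and *Robo1* (2.37-fold) were higher and *Epha3* lower (0.274-fold). *Epha3*, *Slit2* and *Ntn1* stood highest in subcluster 4, where most cells were rich in neural UMIs. *Epha3* made 303 CPM there and at most 60.3 in any other subcluster, *Slit2* 228 and 48.2, and *Ntn1* 39.1 and 10.3. Against neurons alone *Unc5c* was 1.95-fold, *Ntn1* 0.591-fold and *Robo1* 0.788-fold, and their calls were lost.

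Adhesion and cytoskeletal genes differed in direction. Of 16 cadherins and protocadherins 3 were higher and 8 lower (3 and 9 in the 342 members, median log2 fold -0.95). *Cdh11*, the cadherin of mesenchyme, stood at 633 CPM against 70.7 (8.94-fold), and *Pcdh18* was 4.13-fold and *Cdh3* 45.8-fold higher. *Cdh2*, the cadherin of the neuroepithelium, stood at 219 CPM against 644 (0.340-fold), and at 0.153-fold of the neural level in the 342 members. The genes that the study followed were low here: *Pcdh8* made 2.73 CPM in members and 7.46 in neural cells and *Dbx1* 1.02 and 5.86, both under the minimum, and *Dbx1* had no UMI in the 342 members. *Pcdh19* was lower (0.495-fold, but 0.682-fold against neurons alone), *Pcdh9* was 0.537-fold in all members (neither) and 0.348-fold in the 342 (lower), and *Notch1* was lower (0.396-fold, but 0.667-fold against neurons alone) while *Notch2* (1.33-fold), *Hes1* (1.5-fold) and *Jag1* (1.44-fold) were neither. Of 22 intermediate filament and contractile genes, 17 were higher and none lower, with *Nes* lower in the 342 members (median log2 fold 2.08), including *Cald1* at 914 against 78.4 CPM (11.6-fold), *Tpm1* (7.72-fold) and *Myl9* (39.8-fold). *Vim*, an intermediate filament of both mesenchyme and radial glia, stood at 1028 CPM against 1319.9 (neither). The whole list of filament and contractile genes summed to 6790 CPM in members and 8481 in endothelial cells.

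All 25 genes of S phase and all 25 of G2 and mitosis were under 2-fold apart, with median log2 folds of -0.36 and -0.02, and in the 342 members *Rrm2* alone was called, as lower (0.411-fold). *Top2a* stood at 503 CPM in members and 509 in neural cells, *Mki67* at 189.8 and 191, and *Pcna* at 188 and 288. Neural cells include postmitotic neurons, and in the progenitors alone *Top2a* and *Mki67* stood at 547 and 207 CPM. The S phase list summed to 2265 CPM in members, 1996 in the 342, 3028 in neural cells and 3308 in progenitors, and the list of G2 and mitosis to 4037, 3942, 4229.9 and 4532 in the same order. Of 10 immediate early and heat shock genes, which can be induced by dissociation, *Egr1*, *Fos* and *Junb* were higher (3.29-fold, 2.18-fold and 2.05-fold), *Btg2* lower and 6 neither. Against neurons alone the first 3 were 1.07-fold, 1.22-fold and 0.526-fold, and none kept the call. Their part in the other results was not tested.

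The members divided into 6 subclusters, which are described by their leading genes, with no test, since the same genes drew them. Subcluster 1 held 124 cells and was led by *Shox2* (127 CPM against 17.1 in the other subclusters), *Crabp1* (2169 against 584), *Tfap2b*, *Ebf3*, *Crym* and *Cxcl12*. Leading genes had the highest folds over the other subclusters pooled, and a single one could exceed them: *Crym* stood at 494 CPM in subcluster 1 and 508 in subcluster 6, and *Cxcl12* at 273 in subcluster 1, 295 in subcluster 2 and 326 in subcluster 6. *Shox2* and *Tfap2b* are homeobox and AP-2 factors of cranial mesenchyme. *Col1a1* stood at 68.1 CPM there, under its level in each of the other subclusters.

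Subcluster 2, with 43 cells, was led by *Heyl*, a Notch target of mural cells (120.0 CPM against 8.86), and by *Gng11*, *Phlda1*, *Stard13*, *Vtn*, *Tagln2* and *Ebf1*. Of 14 mural markers, 9 were at least 1.5-fold above the other subclusters, and the list summed to 856 CPM against 332. Of the 9, *Anpep* rested on 3 UMIs, and *Foxf2* stood at 21.8 CPM but at 44.9 in subcluster 5 and 75.5 in subcluster 6. The list was also above the others in subcluster 6 (4 markers, 663 against 355 CPM). The same held in subcluster 3 (3 markers, 594 against 305 CPM) and subcluster 5 (2 markers, 406 against 360 CPM). *Abcc9* stood at 80.0 CPM, against at most 5.76 in any other subcluster, and *Pdgfrb* at 189. *Rgs5* reached 21.8 CPM and *Lum* 753 CPM, so that mural and fibroblast genes were found in the same subcluster. Of 10 endothelial markers 4 (*Cd34*, *Eng*, *Emcn* and *Flt1*) were also at least 1.5-fold above the others there, with 67.3 CPM summed over the list against 27.8. These rested on only 4, 8, 5 and 4 UMIs, in that order. The part of these markers was not tested.

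Subcluster 3, with 113 cells, was led by *Tbx15*, *Veph1*, *Tagln*, *Alcam* and *Msx1*. Of 13 craniofacial markers 9 were at least 1.5-fold above the other subclusters, with a summed level of 1854 CPM against 941. Subcluster 5 (59 cells) was led by *Osr1*, a zinc finger factor of mesenchyme (121 CPM against 3.79), by the BMP and Wnt antagonist *Sostdc1* and by *Mdga2*, *Zfpm2* and *Pcdh7*. It also held *Dkk2* at 532 CPM and *Angpt1* at 194. Subcluster 6 (26 cells) was led by the glutamate receptor gene *Grm7*, by *Spon1* and by *Cobl*, and held *Foxd1* at 752 CPM and *Foxp2* at 1714, both above every other subcluster. Of 15 meningeal markers, 6 were at least 1.5-fold above the other subclusters in subcluster 5 (summed level 2612 against 2402 CPM) and 6 in subcluster 6 (3509.6 against 2386 CPM), and 4 each in subclusters 2 and 3. Subcluster 5 also held 5 of 13 craniofacial markers at this margin (1338 against 1106 CPM).

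Subcluster 4, with 104 cells, was led by neural genes (*Nrxn3*, *Sema5b*, *Akap6* and *Elavl3* among its 10). Of its cells 95 held 5 or more neural UMIs, Scrublet marked 78, and the median depth was 22924 UMIs. All 11 progenitor markers and 10 of 11 neuron markers were at least 1.5-fold above the other subclusters there, while *Lum* stood at 125 CPM and *Foxc1* at 59.2, the lowest of the 6. When the 127 members with 5 or more neural UMIs were left out and the other 342 clustered again, 54 of the 56 remaining cells of subcluster 5 and 22 of the 23 of subcluster 6 fell together again. Of the 118 of subcluster 1, 90 did. Of the 102 of subcluster 3, 65 did. The 34 cells of subcluster 2 were divided, with 17 joining the group that held most of subcluster 1.

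**Figure D4:**
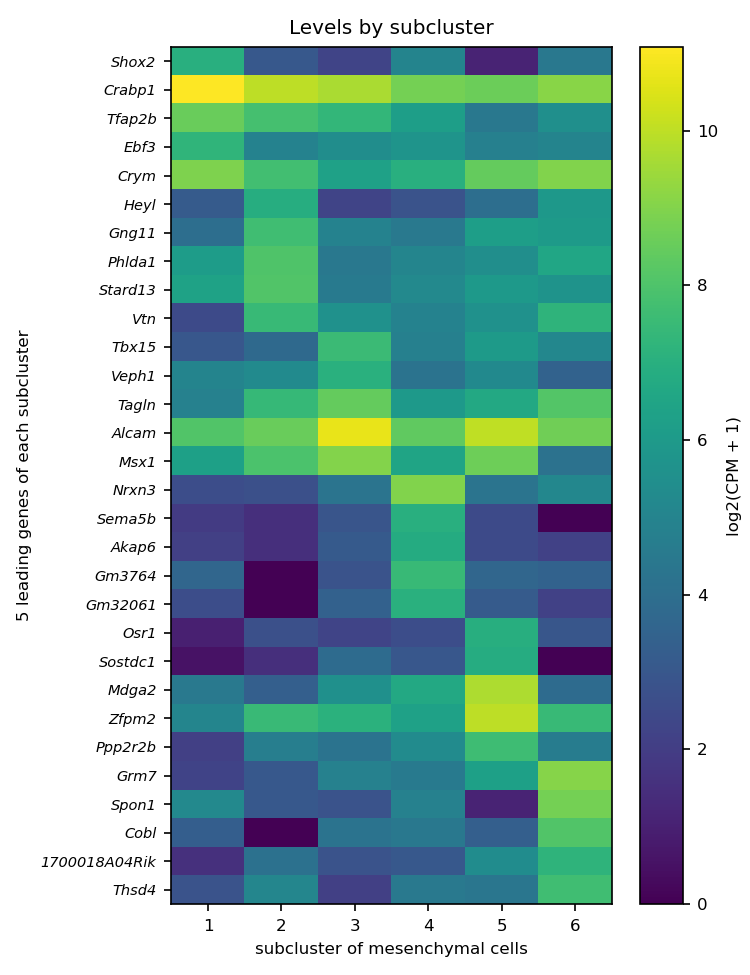
log2(CPM + 1) (colour) of the 5 leading genes of each subcluster (y) in the 6 subclusters of the 469 members (x). Each gene is brightest in its own subcluster except Crym of subcluster 1, which is slightly brighter in subcluster 6, and the block of subcluster 4 holds neural genes.

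The same rule in the septal explants found 37 cells of 5775 kept (0.641%, interval 0.451 to 0.882%), with a median depth of 16738 UMIs, against 5393 neural cells. Levels were not compared between the libraries, which differ in kit and processing, and folds within each are set side by side. In the explants 968 of 8222 genes were higher (11.8%) and 686 lower (8.34%). Of 7613 genes compared in both libraries, 487 were higher in the telencephalic members, of which 441 were also higher in the septal ones. This is 90.6% of the telencephalic list and 55.5% of the 794 septal genes. Of 321 genes lower in the telencephalic members 235 were lower in the septal ones, or 73.2% of that list and 37.2% of the 632 septal genes. Of the 25 genes with the highest folds, 21 were higher in the explants and 4 could not be compared there. Of the 10 with the lowest folds, 5 were lower in the explants, 1 was neither and 4 could not be compared. *Lum* was 1689.7-fold higher in the septal explants (interval 1310.0 to 2214), *Foxc1* 629-fold (interval 358 to 1179) and *Cxcl12* 664-fold (interval 512 to 872).

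Some folds differed in size between the libraries. *Nr2f2*, which encodes the nuclear receptor COUP-TFII, was 1.66-fold in the telencephalic vesicle and 141-fold in the septal explants (interval 106 to 188). *Nr2f1* was 0.901-fold and 31.4-fold in the same order. *Fn1* was 1.47-fold in the telencephalic vesicle and 10.8-fold in the explants, *Col18a1* 1.21-fold and 5.28-fold. S phase genes, none of which was called in the telencephalic vesicle, were lower in the explants in 14 of 25 cases, and the 25 genes of G2 and mitosis were called in neither library. These differences were not tested.

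**Figure D5:**
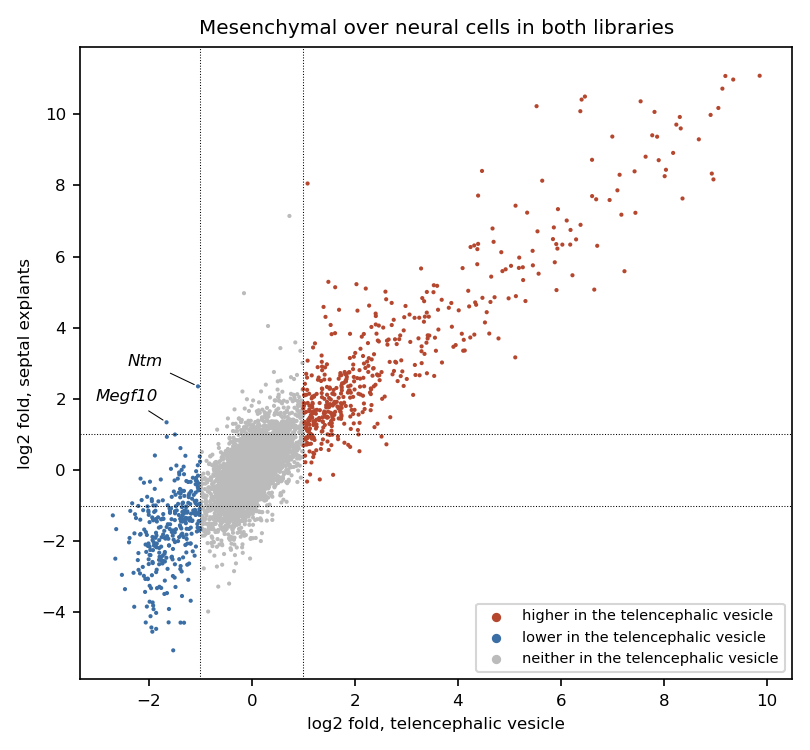
log2 fold of mesenchymal over neural cells in the telencephalic vesicle (x) and in the septal explants (y) for 7606 of the 7613 genes compared in both, coloured by the call in the telencephalic vesicle; 7 genes with no UMI in a class are not drawn and dotted lines mark 2-fold. Of the 487 genes higher in the telencephalic vesicle none lies below the lower dotted line with a call, and Ntm and Megf10 are the 2 genes called in opposite directions.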

How the data were processed

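The authors deposited UMI counts per gene and barcode, 1 matrix per library. Per the submitters' processing notes these were made with Cell Ranger 7.1.0 (telencephalic vesicle) and 2.1.1 (septal explants) on mm10. Whether intronic reads were counted is not given in the sources used here. Beside mouse genes, the gene table of the former lists *LacZ* and that of the latter eYFP and IRESCRE, while the study's methods name YFP and tdTomato as added to the latter.

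The members and gene lists were chosen with earlier results of these data known. Barcodes were kept at 2500 UMIs or more and a mitochondrial share under 6%, which removed 2518 and then 267 barcodes of the telencephalic vesicle. Neural cells were divided into progenitors and neurons by whichever of the progenitor and neuron genes of the definition had more UMIs, ties going to progenitors. Endothelial cells and macrophages were kept barcodes with at least 3 UMIs of *Cdh5* and *Cldn5* or of *Csf1r* and *C1qb*, with no limit on collagen UMIs. UMIs were summed over the cells of a class and divided by the class total (CPM). Levels have exact Poisson intervals, folds exact conditional binomial intervals and shares exact Clopper-Pearson intervals, all at 95%. Cells are not replicates, so that no p-value was computed. Genes named are the 25 with the highest and the 10 with the lowest fold at 100 CPM or more. The collagen genes of the rule were left out of the 25, and the genes of the neural definition out of the 10. Also named are genes picked from each list for abundance or role, the genes of the study, and some of each subcluster's 10 leading genes. The most abundant genes of a list are not always among those named. Subclusters were drawn by Leiden clustering (2000 variable genes, 20 components, 15 neighbours, resolution 0.5). Doublets were marked with Scrublet and kept, and leaving them out was an alternative.

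The tools were Python 3.11.15 with scipy 1.17.1, scanpy 1.11.5 and igraph 0.11.9, and the calls were tested on simulated data. Alternatives changed the collagen, depth, mitochondrial and globin limits, doublets, neural UMIs, weighting, thinning, scaling, reference, thresholds and clustering. Coordinates of genes are those of GRCm38. Some genes of the lists are counted but not reported by name here.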

Additional observations from a re-analysis of the deposited data

Results flagged for a closer look

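Of 7613 genes compared in both libraries, *Ntm* and *Megf10* were called in opposite directions. They were singled out after their values were seen, and the difference between the libraries was not tested. *Ntm*, which encodes the adhesion molecule neurotrimin, was 0.485-fold in the telencephalic vesicle (37.9 against 78.1 CPM, interval 0.434 to 0.541) and 5.10-fold in the septal explants (interval 3.44 to 7.31). *Megf10*, an engulfment receptor, was 0.318-fold in the telencephalic vesicle (20.1 against 63.4 CPM) and 2.53-fold in the septal explants (interval 1.34 to 4.36).

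The telencephalic matrix lists a *LacZ* feature, although its embryos are labelled wild-type. It drew 11 UMIs in 9 barcodes, all of them neural cells and none of them mesenchymal. This is 0.0565 CPM of the library, above the 0.0154 CPM that 3 counts would make.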

How the results depend on the processing

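Among 404 named folds, no called one turned its direction under the limits on depth, mitochondrial share and globin, without Scrublet's doublets or the members with 5 or more neural UMIs, with cells weighted equally, with thinning and with another scaling. Of the 404 folds, 283 moved beyond their interval without the members with 5 or more neural UMIs. Of 161 named genes called higher and 78 called lower, 12 and 26 were under 2-fold against neurons alone, 3 and 12 against progenitors alone, 7 and 7 with members from 5 collagen UMIs, 6 and 3 with thinning, 4 and 1 with cells weighted equally, and at most 1 under each of the other settings. With members from 20 collagen UMIs there were 244 cells. Against neurons alone 938 genes were lower. At 4-fold 328 genes were higher and 88 lower, at a mean of 30 CPM 341 and 285, and with no filter on low values 2131 and 1537. Clustering gave 3 subclusters at a resolution of 0.3 and 10 at 1.0. Directions of called folds turned as follows. Against neurons alone the folds were 1.009 for *Rspo2*, 1.98 for *Rspo1*, 1.27 for *Fgfr3*, 1.15 for *Adamts3*, 0.612 for *Ebf3*, 0.526 for *Junb*, 1.08 for *Fabp7*, 0.885 for *Ebf1*, 1.44 for *Bmp6* and 0.788 for *Robo1*. Against progenitors alone they were 3.82 for *Tbr1*, 1.65 for *Stmn2*, 2.14 for *Dlx5*, 1.59 for *Nsg2*, 2.47 for *Myt1l*, 3.11 for *Ina* and 2.29 for *Dcx*, all neuronal genes except for *Dlx5*, which neurons of the ventral forebrain also express. With members from 5 collagen UMIs they were 1.006 for *Fgf17* and 1.26 for *Fgf8*. The reference is by construction the cause in the first and second case, and in the last the cause was not tested. No paired analysis was possible because each condition is 1 library. A class total of 8789743 UMIs puts the floor of 3 counts at 0.341 CPM in members, and the 37 septal members put it at 4.83 CPM.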
